A study of Mus musculus with 6 samples.

Results

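The Wnt ligands described here are 10 genes of the Wnt family, Wnt10a, Wnt7b, Wnt6, Wnt10b, Wnt4, Wnt5a, Wnt5b, Wnt9a, Wnt11 and Wnt2b, taken by gene symbol from the 54532 named genes of the deposited table. The table holds 19 Wnt genes, and the other 9 are given briefly for completeness. The 10 were chosen with their counts in these same libraries already known, so their levels and fold changes are given as a description, and a count of them past a threshold is printed only beside the share of all genes past it. RNA was sequenced in 3 Gmppb-KO and 3 wild-type libraries of C2C12, a mouse myoblast line that can fuse into myotubes. Gmppb-KO cells had received the plasmids PX458-GFP and PX459-puromycine with guides to exons 1 and 5 of Gmppb, which encodes an enzyme that makes GDP-mannose. They were then selected in puromycin at 4 µg per ml and grown up as monoclonal cells. The wild-type cells carried no labelled treatment, and both kinds of cell grew for 2 days before RNA was taken. Knockout, plasmids, puromycin selection and growth from single cells thus go together in the labels, and their effects cannot be told apart. Genotype below is a name for these groups. No label tells if the 3 Gmppb-KO libraries share 1 clone, or calls the replicates separate cultures. A p-value here therefore rests on the spread of these 6 libraries alone, which may be technical.

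Wnt proteins are secreted, lipid-modified signals that bind Frizzled receptors, with Lrp5 or Lrp6 for the branch that stabilises beta-catenin, and with Ror or Ryk receptors for branches that act on cell polarity and calcium. Porcn attaches the lipid and Wls carries the ligand to the cell surface, while Notum and the Tiki proteins inactivate it outside the cell. In muscle, Wnt signals are known from the induction of myogenic genes in the embryo, from fibre formation and from the building of neuromuscular junctions. Several vertebrate Wnt genes lie in conserved neighbour pairs, of which Wnt6 with Wnt10a and Wnt1 with Wnt10b are examples.

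Total counts in named genes ranged from 17616250 to 18566759 in Gmppb-KO libraries and from 16011021 to 17964344 in wild-type libraries. Pearson correlations of log2 CPM (counts scaled to a common library size, with trimmed means of M values) across genes were 0.924 to 0.979 among Gmppb-KO libraries, 0.955 to 0.983 among wild-type libraries and 0.839 to 0.941 between genotypes. Gmppb itself had 20.6, 16.0 and 13.0 CPM in Gmppb-KO replicates 1, 2 and 3, against 18.1, 20.9 and 23.9 CPM in wild-type replicates 1, 2 and 3, a log2 fold change of -0.34 ± 0.26 (edgeR adjusted p = 0.459; the error of each log2 fold change is its SE). The count spans the whole gene, which makes it a weak check of the genotype labels. A level of 3 counts, the upper limit that a count of 0 allows, corresponded to 0.141 to 0.202 CPM in a library, and covers counting error only.

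The promoter sequences below show what stands directly upstream of the ligands in the neighbour pairs. Wnt6 is shown as a gene with non-overlapping genotypes that has a window in the RefSeq table, and Wnt10b and Wnt1, chosen after their values were seen, are shown as the other pair. Each is the 250 bases before the annotated start in the RefSeq table for GRCm38.p6, 5′ to 3′ on the strand of the gene. Capitals mark each CANNTG, the E-box core read by basic helix-loop-helix factors such as Myod1; the core reads alike on both strands.
Wnt6: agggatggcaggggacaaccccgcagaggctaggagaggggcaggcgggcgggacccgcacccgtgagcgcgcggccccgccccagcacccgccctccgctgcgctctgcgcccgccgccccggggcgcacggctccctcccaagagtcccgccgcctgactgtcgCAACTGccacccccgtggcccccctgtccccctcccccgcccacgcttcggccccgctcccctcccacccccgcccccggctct
Wnt10b: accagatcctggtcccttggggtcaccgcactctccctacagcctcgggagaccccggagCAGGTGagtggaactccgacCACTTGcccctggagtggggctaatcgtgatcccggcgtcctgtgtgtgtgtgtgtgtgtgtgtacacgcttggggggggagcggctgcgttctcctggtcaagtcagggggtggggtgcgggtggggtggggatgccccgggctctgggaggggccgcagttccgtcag
Wnt1: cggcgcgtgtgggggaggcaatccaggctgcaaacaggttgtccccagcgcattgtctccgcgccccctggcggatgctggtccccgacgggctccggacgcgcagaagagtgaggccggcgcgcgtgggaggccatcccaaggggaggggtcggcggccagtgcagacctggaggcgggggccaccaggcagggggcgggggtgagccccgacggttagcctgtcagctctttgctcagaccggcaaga
The Wnt6 window (chr1:74771642-74771891, plus strand) held a single match, CAACTG, whose first base lies 84 bases before the start. The Wnt10b window (chr15:98778151-98778400, minus strand) held CAGGTG at 190 bases and CACTTG at 170 bases before the start. The Wnt1 window (chr15:98789607-98789856, plus strand) held no match. The windows were rich in G and C, at 79.6% for Wnt6, 66.8% for Wnt10b and 71.6% for Wnt1, against a median of 52.4% over all 32851 mouse windows. They held 28, 14 and 23 CpG, in the same order, against a median of 6.

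Windows were found for 7 of the 10 ligands, 10 windows in all, with none for Wnt10a, Wnt7b and Wnt5a. A CANNTG stood in 8 of the 10 windows, and in 66.2% of all mouse windows of this length. The stricter CAGCTG, a core bound by Myod1 and a subset of the general one, stood in 1 window, that of Wnt9a, and in 13.0% of all windows. The core read by Tcf and Lef factors, CTTTGA on either strand, stood in 2 windows, 1 of Wnt5b and 1 of Wnt11, and in 13.8% of all windows. These matches describe letters in the reference and are not binding sites measured in these cells.

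Of the 10 ligands, 3 were far lower in Gmppb-KO than in wild-type libraries, 5 were detected in all 6 libraries with overlapping genotypes, and 2 were near the detection limit throughout. Among all 12786 tested genes the 3 and 3 libraries did not overlap for 26.1%, and for 13% with lower values in Gmppb-KO. Wnt10a and Wnt7b were the ligands with the highest levels in wild-type libraries, Wnt4 the one with the highest level in Gmppb-KO libraries. In bulk RNA, fewer cells of a type and less RNA per cell cannot be told apart.

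Wnt10a (ENSMUSG00000026167, mm10 chromosome 1, 74791516 to 74804179, plus strand) encodes a ligand of the beta-catenin branch known from teeth, hair and fat precursors. It had 0, 0 and 1 read counts in Gmppb-KO replicates 1, 2 and 3, against 482, 509 and 527 in wild-type replicates 1, 2 and 3. In CPM these were 0, 0 and 0.0471 in Gmppb-KO libraries, against 28.6, 34.3 and 30.8 in wild-type libraries. The genotypes did not overlap, and the wild-type libraries lay within 1.20-fold of each other. The pooled level in wild-type over Gmppb-KO was a ratio of 1789 (exact 95% binomial interval 321 to 70705, counting error only), whose upper end is set by the single Gmppb-KO read. The fitted log2 fold change was -10.33 ± 0.55 and moved to -12.08 without Gmppb-KO replicate 3, the library that holds this read, and the authors' deposited table gave -10.77.

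Wnt7b (ENSMUSG00000022382, chromosome 15, 85535437 to 85582473, minus strand), known from lung, kidney and bone development, had 12, 7 and 14 counts in Gmppb-KO replicates 1, 2 and 3, against 751, 573 and 748 in wild-type replicates 1, 2 and 3. Levels were 0.653, 0.392 and 0.660 CPM in Gmppb-KO libraries, against 44.6, 38.7 and 43.8 CPM in wild-type libraries. Unlike Wnt10a, Wnt7b was above 0 in each Gmppb-KO library. Its log2 fold change was -6.19 ± 0.31, with a range of -6.38 to -5.99 over 14 other settings of the fit, and -6.27 in the authors' deposited table. Wnt7b shares 324 exon bases with AU022754 on the opposite strand, a gene with 0 counts in the Gmppb-KO libraries and 3 in the wild-type libraries.

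Wnt6 (ENSMUSG00000033227, chromosome 1, 74771892 to 74785322, plus strand), known from the surface ectoderm of the embryo, where it acts on the somites in the chick, was expressed at a far lower level. It had 2, 2 and 3 counts in Gmppb-KO replicates 1, 2 and 3, against 39, 38 and 30 in wild-type replicates 1, 2 and 3, or 0.109, 0.112 and 0.141 CPM in Gmppb-KO libraries, against 2.32, 2.56 and 1.76 CPM in wild-type libraries. All 3 Gmppb-KO libraries were at or under 3 counts, so the pooled level in wild-type over Gmppb-KO, a ratio of 18.0, carried a wide exact 95% binomial interval of 8.45 to 45.9. The log2 fold change was -4.11 ± 0.49, and -4.25 in the authors' deposited table.

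These 3 ligands passed the filter on low counts through the wild-type libraries, and 8 of the 10 ligands passed it in all. By edgeR 3 of the 8 were past an adjusted p of 0.05 as lower and 0 as higher, where 3.27% of the 12786 genes tested were past it as lower and 2.32% as higher. The libraries of the genotypes did not overlap, with lower values in Gmppb-KO, for the same 3. Since these values chose the ligands, nothing is read from the counts.

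**Figure D1:**
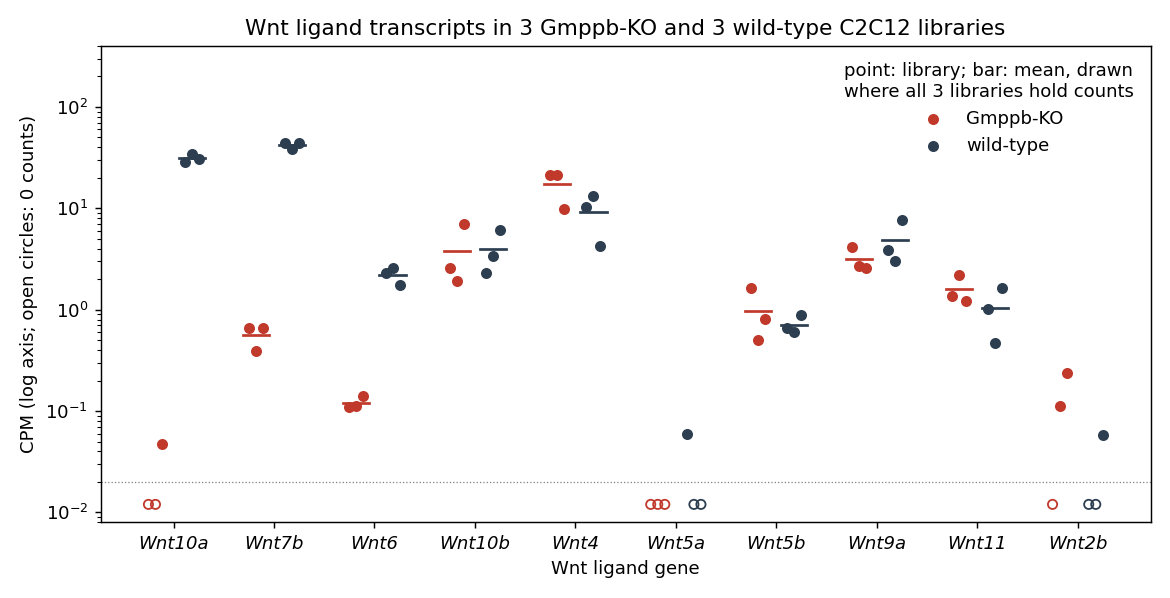
CPM (log axis) of the 10 Wnt ligands, with a point for each library, Gmppb-KO left and wild-type right of each gene, a bar at the mean where all 3 libraries hold counts, and open circles for 0 counts. Wnt10a, Wnt7b and Wnt6 have Gmppb-KO points at 0.660 CPM or lower and wild-type points at 1.76 CPM or higher, while the points of Wnt10b, Wnt4, Wnt5b, Wnt9a and Wnt11 overlap.

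Wnt4 (ENSMUSG00000036856, chromosome 4, 137277489 to 137299726, plus strand), known from kidney and gonad development and from the growth of muscle in the chick, was the best measured of the other ligands. It had 21.2, 21.4 and 9.76 CPM in Gmppb-KO replicates 1, 2 and 3, against 10.2, 13.2 and 4.27 CPM in wild-type replicates 1, 2 and 3. The genotypes overlapped, because Gmppb-KO replicate 3 lay below wild-type replicates 1 and 2, and replicate 3 was the lowest library in both genotypes. The log2 fold change was 0.92 ± 0.47, and lay between 0.51 and 1.23 with 1 library left out.

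Wnt10b (ENSMUSG00000022996, chromosome 15, 98770712 to 98778150, minus strand) encodes a ligand known to hold back fat formation and to favour myogenic and bone fates. It had 2.56, 1.90 and 6.98 CPM in Gmppb-KO replicates 1, 2 and 3, against 2.32, 3.37 and 6.14 CPM in wild-type replicates 1, 2 and 3. Here replicate 3 was the highest library in both genotypes, and the spread within a genotype, 3.66-fold in Gmppb-KO and 2.65-fold in wild-type libraries, exceeded the difference between them. The log2 fold change was -0.05 ± 0.58 and took both signs among 14 other settings, from -0.87 without Gmppb-KO replicate 3 to 0.33 without wild-type replicate 3. Wnt10a and Wnt10b, sister genes by sequence, thus had unlike values: Wnt10a was near 0 in Gmppb-KO libraries while Wnt10b had overlapping genotypes.

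Wnt9a (ENSMUSG00000000126, chromosome 11, 59306928 to 59333552, plus strand), a ligand known from joint formation, had 4.13, 2.69 and 2.59 CPM in Gmppb-KO replicates 1, 2 and 3, against 3.86, 3.04 and 7.67 CPM in wild-type replicates 1, 2 and 3. The genotypes overlapped and wild-type replicate 3 stood above the other 5 libraries. The log2 fold change of -0.63 ± 0.44 was -0.21 without that library.

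Wnt11 and Wnt5b, both known mainly from branches that do not act through beta-catenin, were low. Wnt11 (ENSMUSG00000015957, chromosome 7, 98835112 to 98855195, plus strand), known for orienting elongating muscle fibres in the chick, had 1.36, 2.18 and 1.23 CPM in Gmppb-KO replicates 1, 2 and 3, against 1.01, 0.472 and 1.64 CPM in wild-type replicates 1, 2 and 3. Wnt5b (ENSMUSG00000030170, chromosome 6, 119432531 to 119544347, minus strand) had 1.63, 0.504 and 0.802 CPM in Gmppb-KO replicates 1, 2 and 3, against 0.653, 0.607 and 0.878 CPM in wild-type replicates 1, 2 and 3. Genotypes overlapped for both genes. The log2 fold change was 0.60 ± 0.53 for Wnt11 and 0.45 ± 0.55 for Wnt5b, and that of Wnt5b was -0.21 without Gmppb-KO replicate 1, its highest library.

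Wnt2b and Wnt5a did not pass the filter on low counts. Wnt2b (ENSMUSG00000027840, chromosome 3, 104945272 to 104961921, minus strand) had 0, 2 and 5 counts in Gmppb-KO replicates 1, 2 and 3, against 0, 0 and 1 in wild-type replicates 1, 2 and 3. The pooled level in Gmppb-KO over wild-type, a ratio of 5.94, had an exact 95% binomial interval of 0.763 to 268 that includes no difference. Wnt5a (ENSMUSG00000021994, chromosome 14, 28504750 to 28527448, plus strand), a major ligand of the polarity branch, had 0 counts in all 3 Gmppb-KO libraries and 1 count in wild-type replicate 1. The count of 0 allows a level of up to 0.0522 CPM over the pooled Gmppb-KO libraries, so no difference was detectable at this depth.

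Among the other 9 Wnt genes, Wnt1 had 1, 2 and 2 counts in Gmppb-KO replicates 1, 2 and 3 and 0 in the 3 wild-type libraries. Set against a floor of 3 counts over the wild-type group, its Gmppb-KO level was 1.41-fold higher. That ratio leaves out the counting error of the few Gmppb-KO reads, so it is not a lower bound and no difference is read from it. Wnt2 had 2, 0 and 0 counts in Gmppb-KO libraries and 0 in wild-type libraries. Wnt3, Wnt3a, Wnt7a, Wnt8a, Wnt8b, Wnt9b and Wnt16 had 0 counts in all 6 libraries.

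Levels were compared between ligands as CPM per kb of deposited gene length. In Gmppb-KO libraries the order was Wnt4 with 4.16 ± 1.59 CPM per kb (SD, n = 3, here and below), Wnt10b with 1.12 ± 0.812, Wnt9a with 0.943 ± 0.259, Wnt11 with 0.384 ± 0.125, Wnt5b with 0.369 ± 0.220, Wnt7b with 0.116 ± 0.0312, Wnt6 with 0.0551 ± 0.00821, Wnt2b with 0.0276 ± 0.0281, Wnt10a with 0.00637 ± 0.0110 and Wnt5a at 0. Neighbours whose libraries overlapped were Wnt10b with Wnt9a, Wnt11 with Wnt5b, Wnt6 with Wnt2b, Wnt2b with Wnt10a, and Wnt10a with Wnt5a. In wild-type libraries the order was Wnt10a with 12.7 ± 1.17 CPM per kb, Wnt7b with 8.65 ± 0.657, Wnt4 with 2.20 ± 1.08, Wnt9a with 1.46 ± 0.742, Wnt10b with 1.16 ± 0.581, Wnt6 with 1.01 ± 0.189, Wnt5b with 0.269 ± 0.0545, Wnt11 with 0.251 ± 0.141, Wnt2b with 0.00464 ± 0.00804 and Wnt5a with 0.00253 ± 0.00438. Here Wnt10a stood above Wnt7b in each library and Wnt7b above Wnt4, whereas Wnt4 overlapped with Wnt9a, Wnt9a with Wnt10b, Wnt10b with Wnt6, Wnt5b with Wnt11 and Wnt2b with Wnt5a. Wnt6 stood above Wnt5b in each library. In mean level Wnt10a was above 0.219% of the tested genes in Gmppb-KO libraries and above 71% of them in wild-type libraries. Wnt4 was above 47.7% of tested genes in Gmppb-KO libraries and above 37% in wild-type libraries.

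The summed level of the 10 ligands was 8.17, 7.36 and 6.03 CPM per kb in Gmppb-KO replicates 1, 2 and 3, against 26.5, 28.4 and 28.1 CPM per kb in wild-type replicates 1, 2 and 3. The wild-type mean over the Gmppb-KO mean was 3.85, and the genotypes did not overlap. Without Wnt10a, Wnt7b and Wnt6 the sums of the other 7 ligands were 7.98, 7.23 and 5.81 CPM per kb in Gmppb-KO libraries, against 4.77, 5.38 and 5.87 CPM per kb in wild-type libraries, which overlapped. Wnt10a and Wnt7b together held 1.76 ± 0.740% of the summed level in Gmppb-KO libraries, against 77.1 ± 0.892% in wild-type libraries. Wnt4 held 61.8, 69.5 and 38.6% of the sum in Gmppb-KO replicates 1, 2 and 3, against 9.18, 11.1 and 3.62% in wild-type replicates 1, 2 and 3. Shares of a sum are tied to each other, so a higher Wnt4 share follows in part from the lower levels of Wnt10a and Wnt7b.

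**Figure D2:**
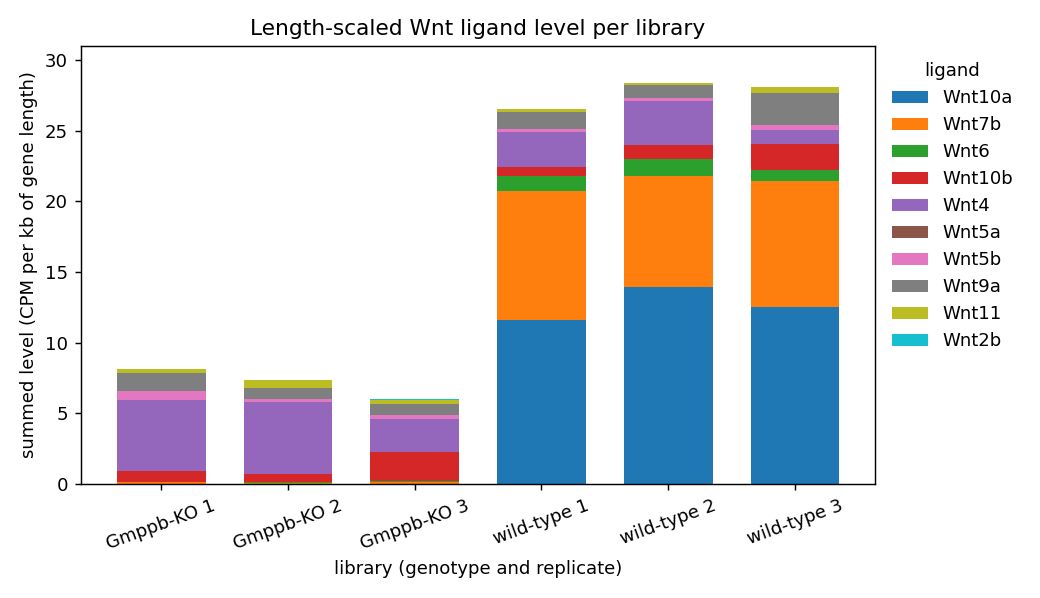
Summed length-scaled level (CPM per kb of gene length) of the 10 Wnt ligands, 1 stacked bar per library, the 3 Gmppb-KO libraries left of the 3 wild-type libraries. The Gmppb-KO bars reach 6.03 to 8.17 CPM per kb and consist mostly of Wnt4, Wnt9a and Wnt10b, and the wild-type bars reach 26.5 to 28.4 CPM per kb, mostly Wnt10a and Wnt7b.

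Wnt6 and Wnt10a lie on the same strand with 6193 bases between them and no other annotated gene in the gap, their starts 19624 bases apart. Both had non-overlapping genotypes with lower values in Gmppb-KO libraries. Within 100 kb on each side of the pair were 12 other genes, of which 2 had enough counts to be tested. Ttll4, a tubulin glutamylase gene, had 18.3 ± 10.8 CPM in Gmppb-KO and 12.4 ± 2.76 CPM in wild-type libraries (log2 fold change 0.56 ± 0.41, edgeR adjusted p = 0.449). Prkag3, which encodes a muscle subunit of AMP-activated kinase, had 0.194 ± 0.246 CPM in Gmppb-KO and 0.610 ± 0.194 CPM in wild-type libraries (log2 fold change -1.57 ± 0.90, edgeR adjusted p = 0.350). The libraries of Prkag3, the nearest protein-coding gene to Wnt6 on its other side, also did not overlap, but narrowly, with 0, 0.112 and 0.471 CPM in Gmppb-KO libraries, against 0.831, 0.472 and 0.527 CPM in wild-type libraries. Neither was called by edgeR, DESeq2 or limma voom, and 0 of the 2 had an unadjusted p under 0.05. The other 10 genes of the window had 0 counts or too few to be tested.

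Wnt1 and Wnt10b are divergent, with 11706 bases between them, Wnt10b on the minus and Wnt1 on the plus strand. Wnt10b had 229 counts over the Gmppb-KO libraries and 194 over the wild-type libraries, while Wnt1 had 5 over the Gmppb-KO libraries and 0 over the wild-type libraries. Of 14 other genes within 100 kb on each side, 6 were tested, and edgeR, DESeq2 and limma voom each called 0 of them, with 0 at an unadjusted p under 0.05 in edgeR. Arf3, a vesicle transport gene beside Wnt10b, had 211 ± 41.5 CPM in Gmppb-KO and 209 ± 31.7 CPM in wild-type libraries. Among the 6, Prkag1, another subunit of AMP-activated kinase, had the fitted change farthest from 0, at -0.74 ± 0.34 on the log2 scale. In a further pair Wnt9a, 16175 bases from Wnt3a, had 179 counts in Gmppb-KO and 241 in wild-type libraries, while Wnt3a had 0 in both.

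**Figure D3:**
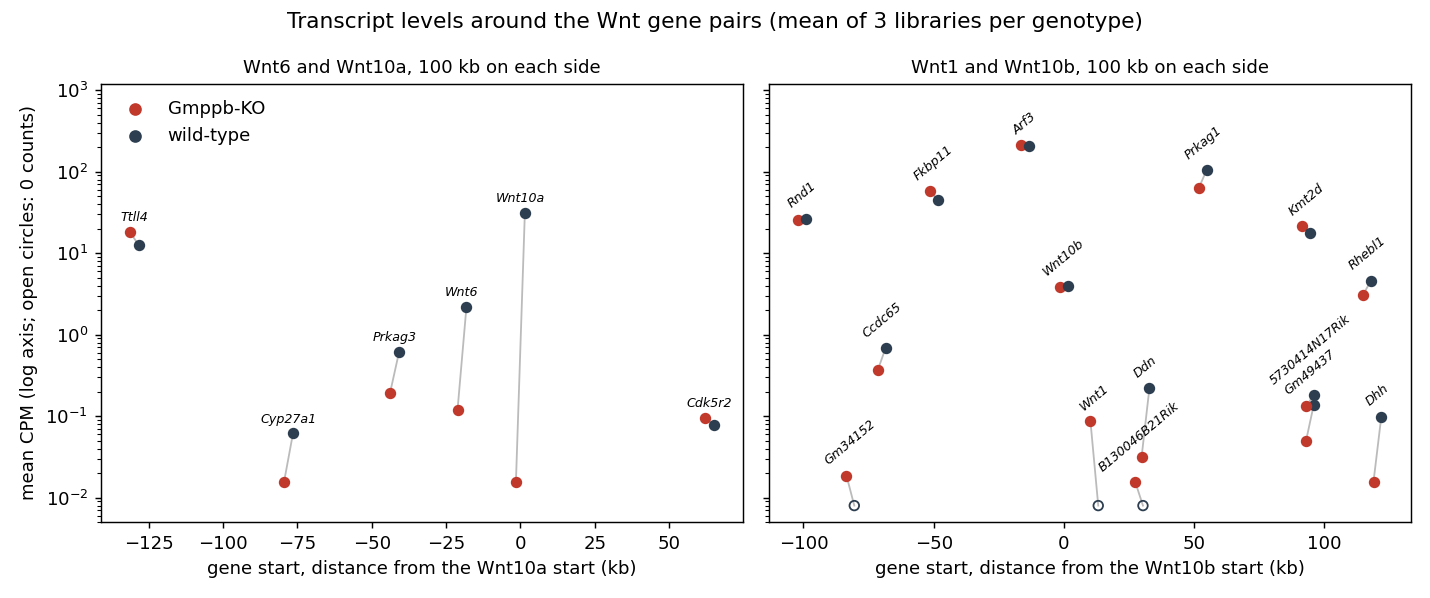
Mean CPM over 3 libraries (log axis) of each gene with counts within 100 kb of the Wnt6 and Wnt10a pair (left panel) and of the Wnt1 and Wnt10b pair (right panel), placed by the distance of its start from the start of Wnt10a or Wnt10b in kb. Red points are Gmppb-KO, dark points to their right wild-type, and open circles 0 counts; the wild-type points of Wnt6 and Wnt10a, at 2.21 and 31.3 CPM, lie well above their Gmppb-KO points, while the points of Wnt10b nearly coincide.

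Across all 10 ligands the nearest protein-coding gene on each side gave 18 genes that are not themselves among the 10, of which 11 were tested. By edgeR 0 of the 11 were called, with 1 at an unadjusted p under 0.05, and DESeq2 and limma voom each called 1. That gene was Erc2, a synaptic scaffold gene beside Wnt5a, with 0, 0 and 0.236 CPM in Gmppb-KO libraries, against 1.37, 1.01 and 0.761 CPM in wild-type libraries (log2 fold change -3.52 ± 0.95, edgeR adjusted p = 0.0778). The share of all tested genes called in either direction was 5.59%. Besides Erc2, Prkag3 and Arf3, the tested neighbours were Adipor2 and Erc1 beside Wnt5b, Zbtb40 and Cdc42 beside Wnt4, Thap12 and Uvrag beside Wnt11, and St7l and Cttnbp2nl beside Wnt2b, with log2 fold changes from -0.36 for Adipor2 to 0.64 for Thap12. Cdk5r2, 7530416G11Rik, Ppara, Cacna2d3, Prss38, Wnt1 and Wnt3a had too few counts to be tested.

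Sequence shared between ligands was short. The longest identical run between the annotated transcripts of any of the 45 pairs of ligands was 29 bases, shared by Wnt5a and Wnt5b. Besides Wnt7b, exon bases overlapped an opposite-strand gene for Wnt5a (358 bases with Gm2670) and Wnt11 (364 bases with Gm8398), both partners having 0 counts in all 6 libraries. Whether the counting used strand is not given in the sources used here.

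Genes with the profile most like Wnt10a over the 6 libraries, by the root mean square difference of centred log2 CPM, were Myod1 (0.254), Eva1b (0.461) and Ngfr (0.515). Myod1, the transcription factor that defines myoblasts, had 0.326, 0.560 and 0.471 CPM in Gmppb-KO replicates 1, 2 and 3, against 160, 163 and 152 CPM in wild-type replicates 1, 2 and 3. Eva1b, a membrane protein gene, had 0.0629 ± 0.109 CPM in Gmppb-KO and 25.6 ± 5.03 CPM in wild-type libraries, and Ngfr, the low-affinity neurotrophin receptor gene, had 0.0874 ± 0.0842 CPM in Gmppb-KO and 30.97 ± 6.31 CPM in wild-type libraries. Nearest to Wnt7b were Ndn (0.215), Snrpn (0.291) and Slc16a11 (0.306). Ndn and Snrpn, both imprinted genes, had 0 counts in all 3 Gmppb-KO libraries, against 6.60 ± 0.126 and 6.68 ± 1.21 CPM in wild-type libraries, and Slc16a11, a monocarboxylate transporter gene, had 1.37 ± 0.396 CPM in Gmppb-KO and 97.4 ± 26.2 CPM in wild-type libraries. The measure runs over 6 libraries of 2 genotypes, so genes with a like genotype difference stand near each other by construction. With a prior count of 2 and Gmppb-KO counts at or near 0 for most of these genes, the distance depends on the prior, and the order does not rank them by the size of the fold.

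The genes that make, carry, receive and pass on Wnt signals were compared on the same fit, with 119 genes in 8 lists outside the 10 ligands, of which 86 were tested. By edgeR 13 of the 86 changed, 9 lower and 4 higher in Gmppb-KO, beside 5.59% of all tested genes. Their median log2 fold change was 0.19, against 0.11 over all tested genes.

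Of 12 tested genes for ligand acylation, secretion and inactivation, 2 fell and 1 rose. Porcn, the acyltransferase that lipidates Wnt proteins, had 3.64, 4.54 and 4.24 CPM in Gmppb-KO replicates 1, 2 and 3, against 13.7, 14.1 and 8.37 CPM in wild-type replicates 1, 2 and 3. The genotypes did not overlap (log2 fold change -1.54 ± 0.32, edgeR adjusted p = 0.0277). Wls, the carrier of lipidated ligands, was at 224 ± 61.1 CPM in Gmppb-KO and 214 ± 45.1 CPM in wild-type libraries. Notum, the extracellular enzyme that removes the lipid, fell to 0.163, 0.112 and 0.377 CPM in Gmppb-KO libraries, against 2.85, 3.04 and 3.98 CPM in wild-type libraries (log2 fold change -3.85 ± 0.54, edgeR adjusted p = 0.00479), and its log2 fold change was -4.55 without Gmppb-KO replicate 3. Trabd2b, which encodes the Wnt-cleaving membrane protease Tiki2, had 14.1, 13.4 and 20.8 CPM in Gmppb-KO libraries, against 1.54, 0.607 and 1.23 CPM in wild-type libraries (log2 fold change 3.82 ± 0.42, edgeR adjusted p = 0.00179). The 2 genes for extracellular inactivation thus changed in opposite directions.

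Of 17 tested receptor and co-receptor genes, 2 fell and 2 rose. Ror2, a receptor for Wnt5a, had 0 counts in the 3 Gmppb-KO libraries and 20, 19 and 35 in the wild-type libraries (edgeR adjusted p = 0.00698). With a floor of 3 counts set over the Gmppb-KO group it was 29.1-fold lower, a ratio that leaves out the counting error of the wild-type reads. Musk, the kinase that organises the neuromuscular junction, had 2.23 ± 0.504 CPM in Gmppb-KO and 6.10 ± 0.975 CPM in wild-type libraries (log2 fold change -1.44 ± 0.34, edgeR adjusted p = 0.0485). Fzd4 had 4.40 ± 1.51 CPM in Gmppb-KO and 1.32 ± 0.131 CPM in wild-type libraries (log2 fold change 1.74 ± 0.39, edgeR adjusted p = 0.0396). Adgra2, the adhesion receptor that with Reck confers responses to Wnt7 ligands in brain vessels, had 162, 126 and 176 CPM in Gmppb-KO libraries, against 46.6, 34.3 and 79.8 CPM in wild-type libraries (log2 fold change 1.53 ± 0.32, edgeR adjusted p = 0.0287). Of 4 tested R-spondin and R-spondin receptor genes, 1 rose: Rspo2, a secreted amplifier of Wnt signals, had 101, 77 and 158 counts in Gmppb-KO libraries, against 3, 0 and 0 in wild-type libraries (edgeR adjusted p = 0.00340). The pooled level in Gmppb-KO over wild-type was a ratio of 95.04, with an exact 95% binomial interval of 32.2 to 463. All 3 wild-type counts were in replicate 1, and the fitted log2 fold change of 6.40 was 9.68 without that library, when wild-type held 0 counts, and 5.76 without wild-type replicate 3. DESeq2 also called Lgr4, an R-spondin receptor gene, as higher. It had 9.52, 11.4 and 32.7 CPM in Gmppb-KO libraries, against 5.70, 4.12 and 6.03 CPM in wild-type libraries (log2 fold change 1.76 ± 0.49, edgeR adjusted p = 0.0894).

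Of 7 tested Wnt antagonist genes, edgeR called Sfrp1 and Dkk3 as lower and 0 as higher. Sfrp1 had 0.231 ± 0.0778 CPM in Gmppb-KO and 1.69 ± 0.903 CPM in wild-type libraries (log2 fold change -2.85 ± 0.61, edgeR adjusted p = 0.0310). Dkk3 had 0.110 ± 0.0956 CPM in Gmppb-KO and 1.71 ± 0.249 CPM in wild-type libraries (log2 fold change -3.92 ± 0.74, edgeR adjusted p = 0.0188). Sfrp2 and Sfrp4 pointed the other way, with higher, non-overlapping values in Gmppb-KO libraries, but were not called. Their log2 fold changes were 2.51 ± 0.70 and 1.23 ± 0.38 (edgeR adjusted p = 0.0872 and 0.124). Apcdd1 was lower without overlap and not called (-1.12 ± 0.40, edgeR adjusted p = 0.179), and Dkk2 and Kremen1 had overlapping genotypes. In the polarity and calcium branch, 2 of 15 tested genes fell. Daam2, a formin that binds Dishevelled, had a log2 fold change of -3.01 ± 0.41 (edgeR adjusted p = 0.00452), and Nfatc4, a calcium-regulated transcription factor, one of -3.56 ± 0.49 (edgeR adjusted p = 0.00448). Nfatc4 had 5, 8 and 4 counts in Gmppb-KO libraries, against 74, 56 and 46 in wild-type libraries. DESeq2 also called Prickle2, of the same list, as higher (log2 fold change 1.93 ± 0.49 and adjusted p = 0.0629 in edgeR).

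Inside the cell, edgeR called 0 of 21 tested beta-catenin signal transduction genes, with 2 at an unadjusted p under 0.05, while DESeq2 called 1, Lef1, and limma voom 0. Lef1, a DNA-binding partner of beta-catenin, had 0.762, 2.18 and 2.12 CPM in Gmppb-KO replicates 1, 2 and 3, against 3.80, 4.66 and 4.33 CPM in wild-type replicates 1, 2 and 3 (log2 fold change -1.33 ± 0.45, edgeR adjusted p = 0.158). Pygo2, a co-activator, had a log2 fold change of -0.49 ± 0.18 (edgeR adjusted p = 0.194). Of 10 tested beta-catenin target genes 1 fell, Nrcam, a cell adhesion gene, with a log2 fold change of -2.74 ± 0.51 (edgeR adjusted p = 0.0173). It was low, with 5, 2 and 6 counts in Gmppb-KO libraries, against 28, 23 and 24 in wild-type libraries. Axin2, the target most often used as a readout, stood at 0.616 ± 0.177 CPM in Gmppb-KO and 0.783 ± 0.116 CPM in wild-type libraries (log2 fold change -0.33 ± 0.46, edgeR adjusted p = 0.679), and was named after its values were seen.

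**Figure D4:**
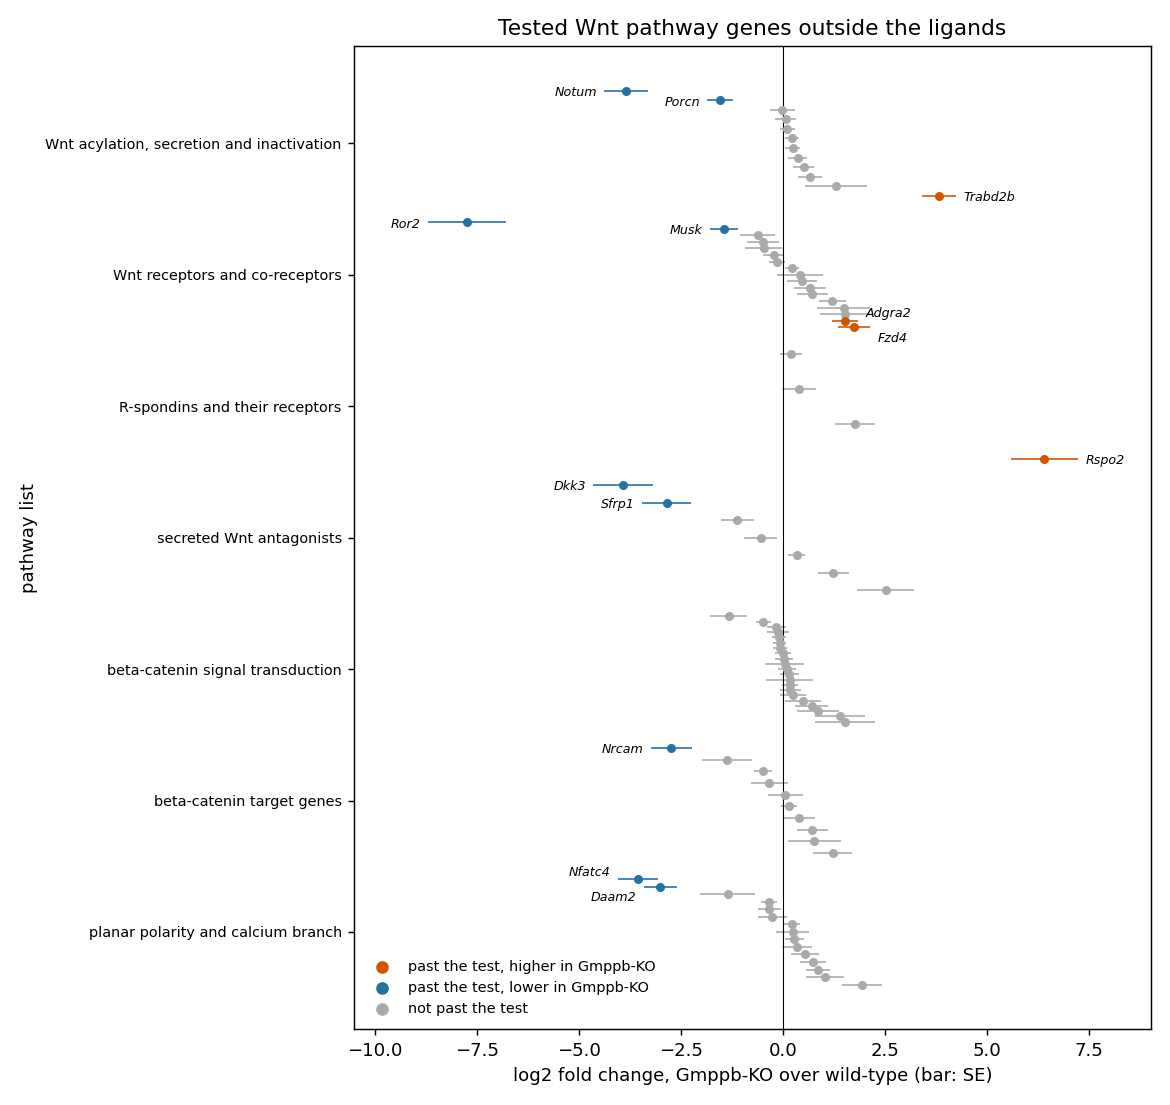
Log2 fold change, Gmppb-KO over wild-type, of the 86 tested Wnt pathway genes outside the ligands, with the SE as a bar, grouped by list down the page. Blue points are the 9 genes past the edgeR threshold as lower, orange points the 4 past it as higher and grey points the rest; the value drawn for Ror2, which had 0 counts in Gmppb-KO libraries, is a fitted value and not a bound.

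Notum, Ror2, Daam2, Nfatc4, Rspo2 and Trabd2b passed the threshold in each of 14 other settings of the fit, and the other 7 calls did not. Leaving out any library but wild-type replicate 3 ended the call of Adgra2, with log2 fold changes of 1.26 to 1.66 in those fits, and leaving out any of the 6 ended that of Fzd4, at 1.37 to 1.90. Porcn lost its call without Gmppb-KO replicate 1 or 2 or wild-type replicate 1 or 2 (-1.61 to -1.44), Musk on leaving out any but Gmppb-KO replicate 3 (-1.58 to -1.31), and Sfrp1 on leaving out any but wild-type replicate 1 (-3.06 to -2.46). Without Gmppb-KO replicate 2, wild-type replicate 1 or wild-type replicate 2, neither Dkk3 (-4.34 to -3.88) nor Nrcam (-2.77 to -2.44) was past the threshold.

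The cells are labelled as muscle cells, and most of their muscle markers differed between the groups. By edgeR, of 12 tested myoblast and differentiation markers, 9 fell and 0 rose, where 3.27% of all tested genes fell and 2.32% rose. The summed level was 2481 to 4413 CPM in Gmppb-KO libraries, against 4454 to 6166 CPM in wild-type libraries, and Ckm was at 0 in all Gmppb-KO libraries. The 9 that fell were Myod1, Pax7, Myog, Chrna1, Mymk, Tnnt1, Myh3, Ckm and Acta1. Their log2 fold changes ran from -8.43 for Myod1 to -0.97 for Chrna1. Myf5 pointed the other way, with 29.2, 48.7 and 93.7 CPM in Gmppb-KO replicates 1, 2 and 3, against 26.7, 29.4 and 12.9 CPM in wild-type replicates 1, 2 and 3. Its genotypes overlapped (log2 fold change 1.32 ± 0.46, edgeR adjusted p = 0.168). Des, the muscle intermediate filament gene and most of that sum, had 3820, 3751 and 1935 CPM in Gmppb-KO replicates 1, 2 and 3, against 4365, 5122 and 3263 CPM in wild-type replicates 1, 2 and 3, which overlapped. Of 8 tested fibroblast markers 1 fell and 3 rose, with sums of 2915 to 3800 CPM in Gmppb-KO and 1081 to 1333 CPM in wild-type libraries. Lum was at 0 in all 6, and Thy1 had a single count, in Gmppb-KO replicate 2. Most of these sums was Col1a1, Col1a2 and Ly6a, of which edgeR called Col1a1 alone (1483 ± 313 CPM in Gmppb-KO, 155 ± 30.2 CPM in wild-type libraries). Col1a2 and Ly6a were higher in Gmppb-KO libraries without overlap (edgeR adjusted p = 0.0756 and 0.0920). Dcn also rose, with 48.3 ± 12.4 CPM in Gmppb-KO and 9.43 ± 4.40 CPM in wild-type libraries. Mfap5 rose as well, with 51.4 ± 9.74 CPM in Gmppb-KO and 2.95 ± 0.844 CPM in wild-type libraries. The gene that fell was Pdgfrb, with 30.7 ± 6.57 CPM in Gmppb-KO and 91.7 ± 7.19 CPM in wild-type libraries. Of 4 tested neural and Schwann markers 3 fell (226 to 399 CPM in Gmppb-KO, 670 to 744 CPM in wild-type libraries), with Sox10 at 0 in all 6. Tubb3, most of that sum, was lower without overlap but not called by edgeR, at 279 ± 81.2 CPM in Gmppb-KO and 465 ± 33.4 CPM in wild-type libraries. Those that fell were Ngfr, with values given above, Stmn2 and Nefl. Stmn2 had 10.0 ± 3.26 CPM in Gmppb-KO and 71.6 ± 4.12 CPM in wild-type libraries. Nefl had 31.4 ± 3.84 CPM in Gmppb-KO and 137 ± 6.12 CPM in wild-type libraries. Of 2 tested epithelial markers 1 fell and 1 rose (21.8 to 55.5 CPM in Gmppb-KO, 7.67 to 14.8 CPM in wild-type libraries), with Epcam, Krt18 and Esrp1 at 0 in all 6. The gene that rose was Krt14, with 48.5, 55.4 and 21.8 CPM in Gmppb-KO libraries, against 11.8, 13.0 and 4.92 CPM in wild-type libraries, nearly all of the sum. Cldn3 fell to 1 count over the Gmppb-KO libraries, against 55 over the wild-type libraries, and Cdh1 and Krt8, too low to be tested, had 0 counts in all Gmppb-KO libraries and some in each wild-type library. The single tested endothelial or leukocyte marker did not pass the test (2.83 to 4.42 CPM in Gmppb-KO, 3.03 to 5.87 CPM in wild-type libraries for the list), and Pecam1, Cdh5, Adgre1 and Cd3e were at 0 in all 6. The part of these shifts in the levels of Wnt10a, Wnt7b and Wnt6 was not tested.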

How the data were processed

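RNA of 3 Gmppb-KO and 3 wild-type C2C12 libraries was analysed from 1 table of the whole series, which holds raw read counts for each gene and library, per the file headers. FastQC, HISAT2, featureCounts of Subread, DESeq2 and the build mm10 are listed in the submitters' processing notes. The sources used here give neither versions nor annotation release nor strand setting. The authors deposited FPKM values scaled by gene length, the mean normalized signal of each genotype, a log2 fold change, a p-value and an adjusted p-value. Of these the log2 fold change is printed, the gene length was used for per kb values, and the FPKM served as an alternative for the ligand levels.

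Counts of named genes were fitted with edgeR 4.0.16 (R 4.3.3; TMM scaling, filterByExpr, quasi-likelihood F test, 2-sided, group as the only term), adjusted by Benjamini-Hochberg over 12786 genes with a threshold of 0.05. A set of 201 loci without a name, 0.0699% to 0.195% of the counts of a library, was left out. CPM are counts scaled to each library's TMM size, and per kb values are further divided by the deposited gene length. Intervals of pooled ratios are exact binomial at 95%. Log2 CPM for profiles used a prior count of 2. Positions matched GENCODE M21 for 10 of 10 ligands, and promoters came from the RefSeq table for GRCm38.p6. Alternatives were DESeq2 1.42.0, limma 3.58.1 voom, other scalings and filters, a replicate block and leaving out each library. The steps were tested on simulated data.

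The ligands, the gene lists and the tests were chosen with earlier results of these data known. The text names every ligand, each tested pathway gene past the threshold and, for a list with none, the 2 with the smallest p; the nearest protein-coding neighbours of the ligands; and the 3 profiles nearest to the 2 ligands with the highest mean level. Wls, Axin2, Lgr4, Prickle2, Des, Myf5, Col1a1, Col1a2, Ly6a, Pdgfrb, Tubb3, Krt14, Krt8, Cldn3 and Cdh1 were named after their values were seen. So were Sfrp2, Sfrp4, Apcdd1, Dkk2, Kremen1, Dcn, Mfap5, Stmn2, Nefl and the muscle markers that fell.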

Additional observations from a re-analysis of the deposited data

How the results depend on the processing

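The count of ligands past the threshold as lower was 3 under each of the 14 alternatives, which refit the counts the ligands were chosen on and so give no independent support. Shares of the ligand sum do not depend on the scaling, and single libraries moved some mean levels by over 1.5 times. Without Gmppb-KO replicate 3 the Gmppb-KO level of Wnt10b was 0.656 CPM per kb in place of 1.12, and its share 8.41% in place of 16.9%; that of Wnt2b was 0.0133 CPM per kb in place of 0.0276. Without Gmppb-KO replicate 1 the Gmppb-KO level of Wnt5b was 0.246 CPM per kb in place of 0.369. The log2 fold change of Wnt10a was -9.69 with limma voom and -9.92 at its least negative with 1 library left out. Without Gmppb-KO replicate 3, the library with its only Gmppb-KO read, it was -12.08. The cause of the limma voom shift was not tested. The number of genes called, 715 (418 lower, 297 higher), was 1292 with DESeq2 (764 lower, 528 higher), 1419 without a low-count filter (780 lower, 639 higher) and 331 to 749 with 1 library left out (212 to 458 lower, 119 to 353 higher). The 13 calls among pathway genes (9 lower, 4 higher) became 8 with total counts as library sizes, of which 2 higher, and 6 to 11 with 1 library left out (4 to 8 lower, 2 to 4 higher). Without a low-count filter 7 pathway genes were called higher. The number of ligands called with 1 library left out was 3 to 3 lower and 0 to 0 higher.

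Replicate numbers are shared by the genotypes, and whether they pair the samples was not settled. Deviations from the group means of same-numbered libraries correlated at -0.179, 0.508 and 0.42 for replicates 1, 2 and 3. The libraries of replicates 2 and 3 correlated best with their own number, and those of replicate 1 did not. With the replicate block 1618 genes were called (945 lower, 673 higher), 10 pathway genes were called higher, and 1 ligand, Wnt4, was called higher (log2 fold change 0.98 ± 0.24).

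The median log2 fold change of all tested genes was 0.11 under the trimmed mean scaling, 0.27 with total counts and 0.03 with DESeq2 size factors, so changes are relative to the chosen scaling. Counts under 10 in a library limit Wnt6 and Wnt10a in Gmppb-KO libraries, Wnt2b, Wnt5a and Wnt1 in all libraries, and Wnt7b, Wnt5b and Wnt11 in 1 or 2 libraries. Among pathway genes past the threshold they limit Notum, Ror2, Sfrp1, Dkk3, Nfatc4 and Nrcam in Gmppb-KO libraries. In wild-type libraries they limit Rspo2, and in wild-type replicate 2 Trabd2b.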
